A study of Mus musculus with 21 samples.

Results

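The genes of 10 heat shock proteins and related chaperones were followed across 21 RNA-Seq libraries of neutrophils (PMNs) and renal tubular epithelial cells (TECs). They were taken by symbol, from a list chosen with earlier results of these data known. The genes are Hspa1a, Hspa1b, Hspb1, Hsph1, Dnajb1, Hsp90aa1, Hspa8, Hspa5, Hspd1 and Hspe1, which are 10 of the 54123 genes with a transcript in the data. All 10 passed the filter on low counts in every comparison. The 4 results described at length are a high level of Hspa1a in PMNs, low levels of the mitochondrial pair Hspd1 and Hspe1 in PMNs against TECs, a low level of Hspe1 in PMNs after IRI, and levels in TECs after IRI that were lower for several housekeeping chaperones and higher for Hspb1 but missed the adjusted threshold in the main test.

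Heat shock proteins are chaperones, which bind unfolded proteins, keep them from aggregating and help them fold. Cells with damaged proteins make more of some of them through heat shock factor 1, which binds repeats of a short DNA element before the gene, while other family members are made in large amounts in unstressed cells. Ischemia of the kidney is a known inducer of inducible HSP70 and of HSP27 in tubular cells, and the chaperones of the endoplasmic reticulum and of mitochondria answer to stress programs of their own.

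The mice were wildtype males of strain C57BL/6, 8 to 12 weeks old per the study's methods. Every library was made 24 hours after surgery, which was a sham operation or IRI with 32 minutes of clamping of the renal pedicles. Before it, the mice received RIPC, in which a hind limb cuff was inflated in 3 cycles, or a control procedure. PMNs, which the labels place in blood, gave 2 libraries in the sham control group, 3 in the sham RIPC group, 2 in the IRI control group and 3 in the IRI RIPC group, and TECs from kidney gave 3, 3, 2 and 3. The methods describe taking TECs with magnetic beads against prominin-1, which selects for cells with this surface protein. Markers of other cell types were still measured in the TEC libraries, as given below. The labels do not say whether replicates are separate animals. The study calls its libraries biological replicates and counts animals as n in experiments on mice.

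The libraries held between 20881334 and 30507235 estimated reads in PMNs and between 21479605 and 51624602 in TECs. Each library came as 2 files whose gene counts differed by less than the sampling noise of independent reads, with a median chi-square over genes of 0.0133 to 0.0789 per library where independent reads would give 0.455, so the sum of both files may overstate the number of independent reads. Neutrophil markers (14 genes) summed to between 6730 and 47066 CPM in PMNs and to between 1.82 and 307 CPM in TECs, and the 12 proximal tubule markers to between 3352 and 22506 CPM in TECs. The same tubule markers were also present in PMNs, at 1465 to 12832 CPM after sham surgery and at 691 to 1179 CPM after IRI. Replicate 2 of the sham control group had the highest sum of these markers among PMN libraries and a mitochondrial share of 13.0%, where the other PMN libraries had between 1.43% and 5.80%. Replicate 3 of the IRI RIPC group stood apart among TECs after IRI, with 9920 CPM of tubule markers against 3352 to 4948 in the others. The spread between replicates was wide, and edgeR's common biological coefficient of variation was 1.65 in PMNs and 1.54 in TECs.

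Shared sequence limits which of these genes can be told apart, and the regions before 3 of the inducible genes are shown for the heat shock elements they hold. Hspa1a (ENSMUSG00000091971.3) lies on chromosome 17 of GRCm38 from 34969190 to 34972156 and Hspa1b (ENSMUSG00000090877.3) beside it from 34956436 to 34959238, both on the minus strand, and each has 1 transcript. Of the 2918 stretches of 50 bases, the read length, in the Hspa1a transcript, 58.8% also occur in Hspa1b, so that reads from these stretches were divided between the genes by the authors' quantification, and the sum of both genes removes the division between them. With other genes counted, 66.3% are shared, so the sum still depends on the division with Gm20481 and Gm10501. These held at most 2.03% and 3.96% as many reads as Hspa1a in any library with reads of Hspa1a. Replicate 2 of the TEC IRI RIPC group had 0 reads of Hspa1a, so this share does not exist for it. Against Hspa1b alone, Gm20481 held up to 432% as many reads. Stretches also occurred in other genes for Hsp90aa1 (47.5%), Hspd1 (42.1%), Hspa8 (39.4%) and Hspe1 (22.8%), and Hspd1 and Hspe1 share some with each other. The gene sharing most with Hspd1, Hspd1-ps3, held at most 1.18% as many reads. For Hspe1 it was AC117239.2, with at most 1.63%. The 120 bases before the starts of the genes (RefSeq, GRCm38.p6) were identical at 119 positions. In these lines the capitals mark a 2-unit heat shock element, GAANNTTC or TTCNNGAA, 5′ to 3′ on the strand of the gene, at chr17:34972157-34972276 for Hspa1a, chr17:34959239-34959358 for Hspa1b and chr5:135887799-135887858 (plus strand) for Hspb1.
Hspa1a: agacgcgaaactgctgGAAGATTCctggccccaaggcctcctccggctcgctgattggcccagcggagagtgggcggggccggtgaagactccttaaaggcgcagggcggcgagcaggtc
Hspa1b: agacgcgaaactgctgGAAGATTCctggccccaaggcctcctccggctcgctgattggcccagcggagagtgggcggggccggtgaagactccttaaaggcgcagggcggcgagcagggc
Hspb1: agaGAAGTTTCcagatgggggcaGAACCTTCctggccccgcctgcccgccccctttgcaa

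These elements are short, and 14.5% of the 27025 genes with a RefSeq promoter entry held at least 1 match within the 250 bases before a start, counted on both strands, with longer elements counted again as shorter ones. Longer elements were rarer. A run of 4 alternating units occurred in 7 genes, a share of 0.0259%, and Hspd1 and Hspe1 share the same run. Hspd1 (ENSMUSG00000025980.14, chromosome 1, 55077835 to 55088243, minus strand) and Hspe1 (ENSMUSG00000073676.4, 55088132 to 55091307, plus strand) stand head to head and overlap at their starts, and the run lies 72 to 89 bases before the start of Hspe1, inside an annotated exon of Hspd1. The ER stress response element, which is CCAAT followed after 9 bases by CCACG, was found for Hspa5 and for 0.13% of genes, and Hsph1 held a 2-unit element. Both of these matches lie inside an annotated exon of their own gene, whose Gencode start lies further upstream. The lines give 30 bases around each, at chr1:55088053-55088082 (plus strand), chr2:34772020-34772049 (plus strand) and chr5:149636351-149636380 (minus strand), with the element in capitals. Neither of the RefSeq starts of Dnajb1 had any of these letters before it.
Hspe1 and Hspd1: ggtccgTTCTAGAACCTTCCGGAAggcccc
Hspa5: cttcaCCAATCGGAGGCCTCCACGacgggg
Hsph1: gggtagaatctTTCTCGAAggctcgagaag

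Per length, as the authors' TPM, Hspa8 was the most abundant of the 10 genes in each cell type after each kind of surgery. Hspa8 encodes HSC70, the constitutive cytosolic HSP70, and its mean TPM was 469 ± 143 (SD, n = 5) in PMNs after sham surgery, 383 ± 61.7 (SD, n = 5) after IRI, 625 ± 100.05 (SD, n = 6) in TECs after sham surgery and 295.5 ± 52.9 (SD, n = 5) after IRI. The second place changed from set to set. In PMNs it was held after sham surgery by Hspa1a with 281 ± 201 TPM, and after IRI by Hspa5 with 196 ± 53.2 TPM. TECs had Hspe1 in that place after sham surgery, at 333 ± 87.2 TPM, and Hsp90aa1 after IRI, at 189 ± 32.4 TPM. Most neighbors in these orders overlapped between libraries. The libraries of neighbors did not overlap for Hspa8 over Hspa5 and Hsp90aa1 over Dnajb1 in PMNs after IRI, for Hspa8 over Hspe1, Hspd1 over Hspa1a and Hsph1 over Hspa1b in TECs after sham surgery, and for Hspe1 over Hspd1 and Dnajb1 over Hspa1b in TECs after IRI. Hspa1b and Hsph1 were last or next to last in PMNs, and Hspa1b was last in TECs. The 10 genes together took between 0.0765% and 0.225% of all TPM in PMNs and between 0.0709% and 0.202% in TECs. All values that follow are CPM, reads scaled by TMM over the 21 libraries, which compare a gene between libraries but not genes with each other.

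**Figure D1:**
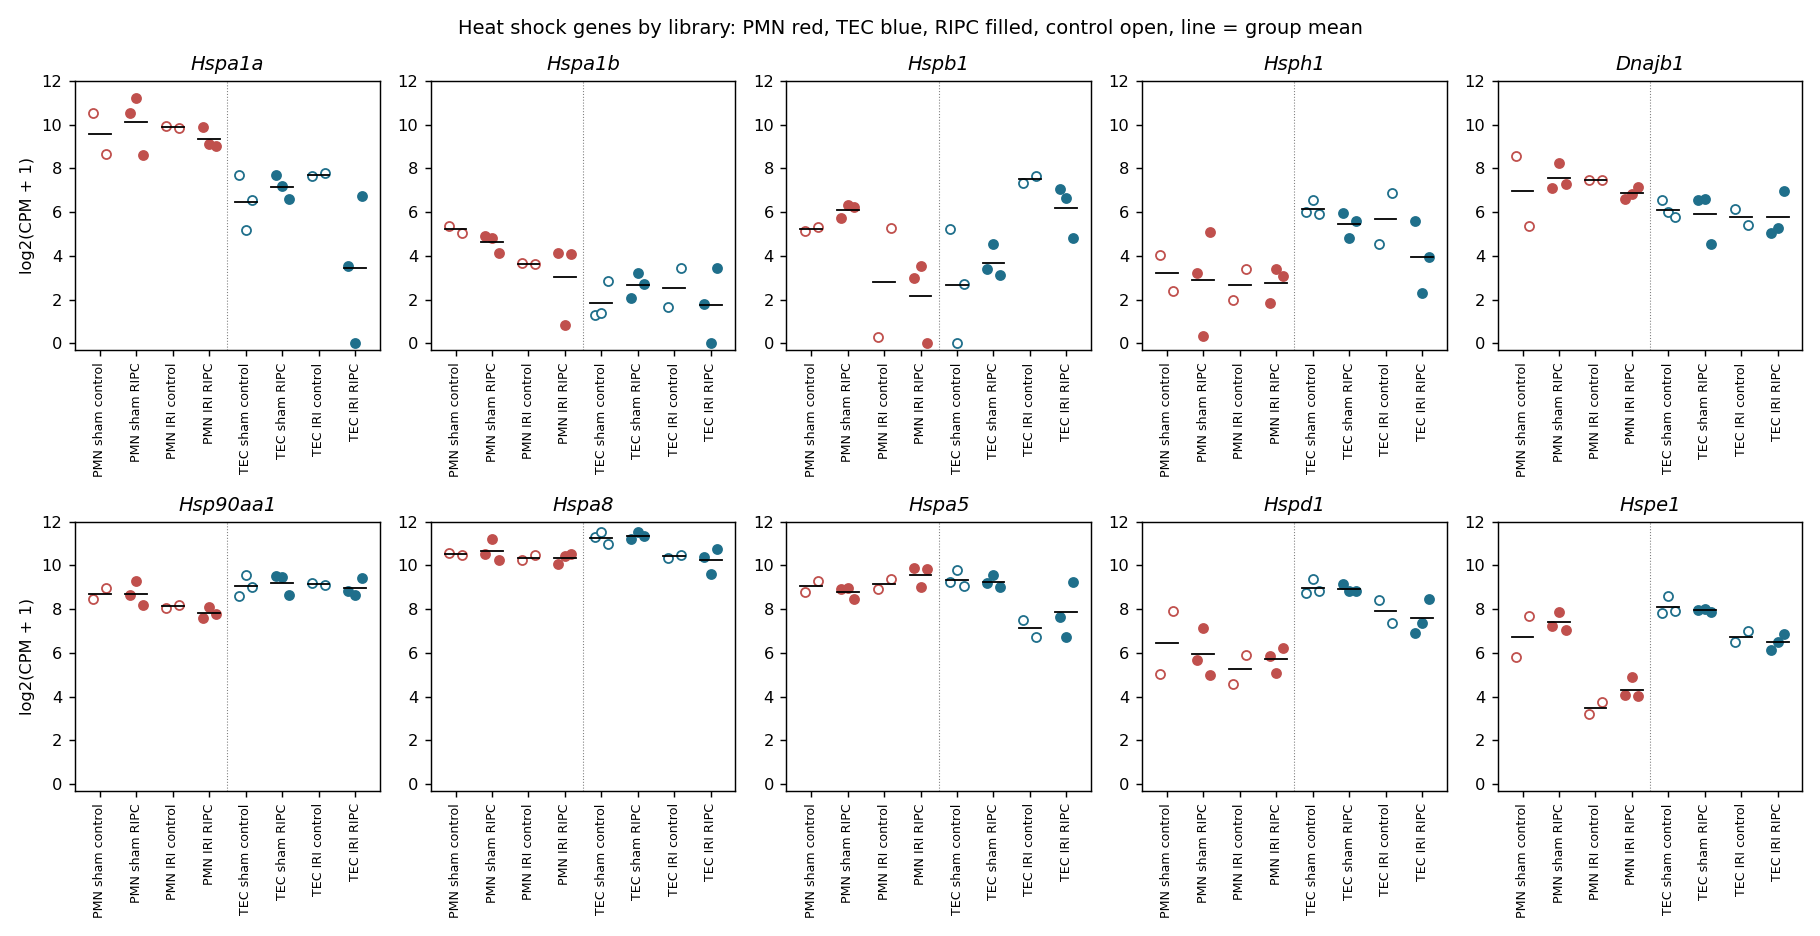
Level of each of the 10 genes in every library, as log2(CPM + 1), for the 8 groups, with PMNs in red, TECs in blue, RIPC as filled points and control as open points, and a line at the mean of a group. Hspa1a sits higher in every PMN library than in any TEC library, Hspe1 is at 28.3 CPM or less in all PMN libraries after IRI, and the TEC IRI RIPC group holds a library with 0 reads of Hspa1a and Hspa1b.

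The first comparison asked which of these chaperones differ between PMNs and TECs, with the 4 groups of each cell type weighted equally. Of the 10 genes, 4 passed the threshold of edgeR (Benjamini-Hochberg adjusted p under 0.05 over all 31769 genes), 1 higher and 3 lower in PMNs, where 6.87% of all genes passed, 2.91% higher and 3.95% lower. DESeq2's Wald test called 7, against 17% of all genes. Unadjusted p-values under 0.05 were found for 8 of the 10, against 17.8% of all genes. Fewer cells of a type and less RNA per cell cannot be told apart in bulk libraries. In PMNs, the RNA of tubule markers described above and of macrophage markers was measured together with that of neutrophils. The 8 macrophage markers summed to between 832 and 9466 CPM in PMNs and between 3.22 and 35.6 CPM in TECs. All 8 passed the threshold of edgeR, higher in PMNs, and the part of macrophages in these results was not tested.

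Hspa1a, an inducible cytosolic HSP70, was the gene higher in PMNs. Its level in PMNs was 1493 and 400.2 CPM in the sham control group, 1472, 2398 and 389.6 CPM in the sham RIPC group, 970.1 and 923 CPM in the IRI control group, and 954, 549 and 518 CPM in the IRI RIPC group. TECs had 207, 35.0 and 94.0 CPM in the sham control group, 205, 146 and 94.7 CPM in the sham RIPC group, 201 and 218 CPM in the IRI control group, and 10.7, 0 and 107 CPM in the IRI RIPC group. The lowest PMN library was above the highest TEC library, which was the case for 1 of the 10 genes in this direction and for 0.818% of all genes tested. The fitted difference was 8.9-fold, a log2 fold change of 3.15 (SE, its standard error, 0.73, edgeR adjusted p = 0.00904). Over the fits that left out 1 library the adjusted p of edgeR lay between 4.6e-04 and 0.0294. Within single pairs of groups the log2 fold change lay between 2.18 and 4.10, and none of these 4 comparisons passed the threshold in edgeR, with adjusted p-values between 0.241 and 0.657.

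Hspa1b, the neighboring copy, encodes the same kind of protein and had 0.801 to 40.2 CPM in PMNs and 0 to 9.93 CPM in TECs. Hspa1a took between 92.5% and 99.9% of the reads of both genes in PMNs and between 81.1% and 99.3% in the 10 TEC libraries that had reads of them. Summed over both genes, the log2 fold change between PMNs and TECs was 3.11 (SE 0.72, edgeR adjusted p = 0.00941), and for Hspa1b alone it was 2.01 (SE 0.82, edgeR adjusted p = 0.174). Replicate 2 of the TEC IRI RIPC group had 0 reads of either gene, which allows up to 3 reads of the 21479605 in the library, and this limit covers counting error only.

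Dnajb1 encodes HSP40, the J protein that brings clients to cytosolic HSP70, and it had 40.4 to 376 CPM in PMNs and 22.6 to 126 CPM in TECs. The groups overlapped. Its log2 fold change of 1.40 (SE 0.43) missed the threshold at an edgeR adjusted p = 0.055, was 0.76 without replicate 1 of the PMN sham control group, and passed the threshold with either of the 2 files alone (edgeR adjusted p = 0.0457 and 0.0434) and in DESeq2's Wald test (adjusted p = 0.00447).

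The mitochondrial chaperonin genes were lower in PMNs. Hspd1 encodes HSP60, which forms the folding chamber of the mitochondrial matrix, and Hspe1 encodes HSP10, its lid. Hspd1 had 31.7 and 237 CPM in PMNs of the sham control group, 49.8, 141 and 30.6 CPM with sham and RIPC, 23.1 and 59.1 CPM in the IRI control group, and 56.1, 32.8 and 74.7 CPM with IRI and RIPC. In TECs it had 428, 674 and 451 CPM in the sham control group, 569, 457 and 456 CPM with sham and RIPC, 347 and 164 CPM in the IRI control group, and 119, 164 and 350.3 CPM with IRI and RIPC. The cell types overlapped through replicate 2 of the sham control PMNs and replicate 2 of the sham RIPC PMNs, which reached into the range of TECs after IRI. Hspd1 was 4.99-fold lower in PMNs, a log2 fold change of -2.32 (SE 0.42, edgeR adjusted p = 0.00136), and Hspe1 was 3.5-fold lower, at -1.81 (SE 0.34, edgeR adjusted p = 0.0017). Both calls held in all 21 fits that left out 1 library, with edgeR adjusted p-values of at most 0.00763 for Hspd1 and 0.0268 for Hspe1. Within single pairs of groups neither passed. Hspd1 then lay between -2.74 and -1.95, and Hspe1 at -1.14 in the sham control groups, -0.51 with sham and RIPC, -3.38 in the IRI control groups and -2.20 with IRI and RIPC, with edgeR adjusted p-values between 0.0971 and 0.736 for Hspe1.

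Hsph1 encodes HSP110, which exchanges the nucleotide of HSP70, and had 0.273 to 33.5 CPM in PMNs and 3.98 to 116 CPM in TECs. It was 5.46-fold lower in PMNs, a log2 fold change of -2.45 (SE 0.70, edgeR adjusted p = 0.0377). This call was lost in 11 of the 21 fits that left out 1 library, with edgeR adjusted p-values up to 0.136, and with an offset for transcript length (edgeR adjusted p = 0.196). Non-coding transcripts took a median of 14.1% of the Hsph1 reads in TECs and 0% in PMNs. Their share reached 84.5% in replicate 2 of the TEC IRI RIPC group, which had 94 reads of Hsph1. This was the highest such share among the 10 genes.

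Hsp90aa1, the inducible cytosolic HSP90, had 193 to 625 CPM in PMNs and 385 to 765 CPM in TECs, a log2 fold change of -0.77 (SE 0.26, edgeR adjusted p = 0.0842). Hspa8 stood at 1061 to 2349 CPM in PMNs and at 785 to 2928 CPM in TECs, with a log2 fold change of -0.36 (SE 0.21, edgeR adjusted p = 0.415). Hspa5 encodes BiP, the HSP70 of the endoplasmic reticulum, and had 349 to 946 CPM in PMNs and 104 to 874 CPM in TECs. Its log2 fold change was 0.65 (SE 0.30, edgeR adjusted p = 0.253), and it was negative within the sham control groups (-0.33) and within the sham RIPC groups (-0.47). Hspb1 encodes HSP27 (HSP25 in mice), a small heat shock protein that holds unfolded proteins and binds actin, and its log2 fold change was -0.85 over all groups (SE 0.92, edgeR adjusted p = 0.891), 1.36 within the sham control groups and 2.39 within the sham RIPC groups.

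**Figure D2:**
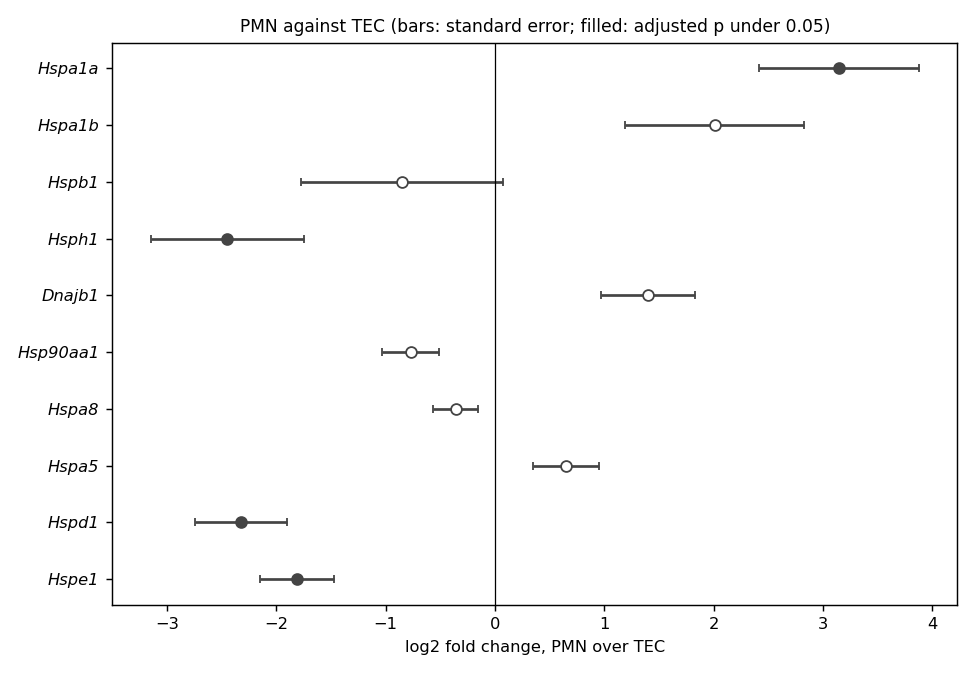
Log2 fold change of each gene in PMNs over TECs with its standard error, fitted by edgeR to all 21 libraries, with filled points where the adjusted p was under 0.05. Hspa1a lies at 3.15 on the side of PMNs, and Hspd1 (-2.32), Hspe1 (-1.81) and Hsph1 (-2.45) lie on the side of TECs.

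Other chaperone genes were compared between PMNs and TECs in the same fit. Of 79 other genes in 9 lists of chaperones, cochaperones and their regulators, 78 were tested. Past the threshold of edgeR, 0 were higher and 10 lower in PMNs, against 2.91% and 3.95% of all genes. Unadjusted p-values under 0.05 were found for 29 lower and 3 higher genes, against 17.8% of all genes in either direction, and 62 fitted log2 fold changes were negative. Their median log2 fold change was -0.86, against -0.02 for all genes and -0.57 for the 10 heat shock genes. Of the 8 subunits of the cytosolic chaperonin CCT, 1 passed the threshold, 6 had an unadjusted p under 0.05 and 8 had a negative log2 fold change. Of the 16 genes of ER chaperones and the ER stress response, 0 passed and 3 had an unadjusted p under 0.05, with a median of -0.15. Of the 5 heat shock factors and their regulators, 0 passed and 2 had an unadjusted p under 0.05, both lower in PMNs.

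The 5 other chaperone genes with the smallest adjusted p were all lower in PMNs. St13, a cochaperone of HSP70, had 54.8 ± 24.7 CPM (SD, n = 10) in PMNs and 282 ± 80.5 CPM (SD, n = 11) in TECs, a log2 fold change of -2.40 (SE 0.33, edgeR adjusted p = 7.55e-05). Trap1, the HSP90 of mitochondria, was 6.53-fold lower (edgeR adjusted p = 0.00157), and Hsp90ab1, the constitutive cytosolic HSP90, was 2.61-fold lower with 334 ± 115 CPM against 822 ± 229.8 CPM (edgeR adjusted p = 0.00169). Clpp, a protease of the mitochondrial matrix, was 6.1-fold lower, and Hspa12a, a distant member of the HSP70 family, was 92.7-fold lower at very low counts in PMNs (0.123 ± 0.149 CPM), both at an edgeR adjusted p of 0.00745.

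Immediate early genes, which are switched on within minutes of a stimulus and also when cells are handled, were, like Hspa1a, mostly higher in PMNs. Of 15 such genes, 9 were higher and 0 lower in PMNs past the threshold of edgeR, among them Junb (6.49-fold, edgeR adjusted p = 2.1e-05), Zfp36 (4.93-fold, 2.62e-04), Dusp1 (5.17-fold, 3.67e-04), Ier3 (7.13-fold, 0.00102) and Nr4a1 (27-fold, 0.00313). Their sum was between 4685 and 20565 CPM in PMNs and between 987 and 5328 CPM in TECs. Between IRI and sham surgery within PMNs, the median log2 fold change of these genes was 1.16, while that of Hspa1a was -0.55 (SE 0.52). The part of the immediate early genes in the result for Hspa1a was not tested.

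The second comparison asked how the genes differ in PMNs between IRI and sham surgery, with control and RIPC groups weighted equally. Of the 10 genes, 1 passed the threshold of edgeR, Hspe1, where 0.416% of all genes passed in either direction and 0.052% were lower after IRI. Unadjusted p-values under 0.05 were found for Hspe1 and Hsp90aa1, 2 of the 10, against 11.8% of all genes. Of the 10 fitted log2 fold changes, 9 were negative, with a median of -0.84 against -0.01 over all genes. The libraries of both kinds of surgery did not overlap for these same 2 genes, both lower after IRI, against 2.03% of all genes in this direction.

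Hspe1 had 55.9 and 202 CPM in PMNs of the sham control group and 151, 237 and 129.7 CPM in the sham RIPC group. After IRI it had 8.24 and 12.5 CPM in the control group and 15.9, 28.3 and 15.2 CPM in the RIPC group. Every library after IRI was below every library after sham surgery, and within sham surgery replicate 1 of the control group was the lowest. The difference was 10.5-fold, a log2 fold change of -3.40 (SE 0.53, edgeR adjusted p = 0.0374). It was -3.64 within the control groups (edgeR adjusted p = 0.632) and -3.15 within the RIPC groups (edgeR adjusted p = 0.135). The call was lost in 8 of the 10 fits that left out 1 library, where the log2 fold change stayed between -3.70 and -2.73 and the edgeR adjusted p rose to at most 0.248, reached without replicate 1 of the IRI control group. DESeq2's Wald test called 1 of the 10 genes as well, against 7.77% of all genes.

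Markers of tubular cells were compared in the same PMN libraries. All 12 proximal tubule markers had a negative log2 fold change, 11 of them with an unadjusted p under 0.05 and 0 past the threshold of edgeR, and their sum did not overlap between the kinds of surgery (1465 to 12832 CPM after sham surgery, 691 to 1179 CPM after IRI). The lowest Hspe1 level after sham surgery, 55.9 CPM, was in the library with the lowest tubule sum of that set, 1465 CPM. Macrophage markers, 8 genes of which 0 passed the threshold, summed to between 2876 and 9466 CPM after sham surgery and to between 832 and 1905 CPM after IRI. Neutrophil markers summed to 6730 to 32338 CPM after sham surgery and to 24904 to 47066 CPM after IRI, and 1 of 14 passed the threshold, higher after IRI. Sums of distal tubule and collecting duct markers were 135 to 5279 CPM after sham surgery and 48.4 to 612 CPM after IRI, those of endothelium 39.7 to 219 and 13.8 to 66.5 CPM, of lymphocytes 9.06 to 144 and 7.34 to 43.2 CPM, of erythrocytes 92.5 to 235 and 12.4 to 365 CPM, and of tubular injury genes 509 to 1909 and 1638 to 7754 CPM. Lcn2 is in both the neutrophil and the tubular injury list, so the sums of these lists share its reads. The part of the marked cell types in the result for Hspe1 was not tested.

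Hspd1, whose product works with that of Hspe1, had a log2 fold change of -1.09 in the same comparison (SE 0.70, edgeR adjusted p = 0.532). It turned to 0.02 without replicate 2 of the sham control group, which had 237 CPM of Hspd1 and the highest tubule sum. The ratio of Hspe1 to Hspd1 in TPM was between 4.58 and 26.01 (median 9.84) in PMNs after sham surgery and between 0.912 and 4.59 (median 1.32) after IRI. In TECs this ratio was between 2.40 and 2.88 after sham surgery, the narrowest range of the 4 sets, and between 1.45 and 4.57 after IRI.

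**Figure D3:**
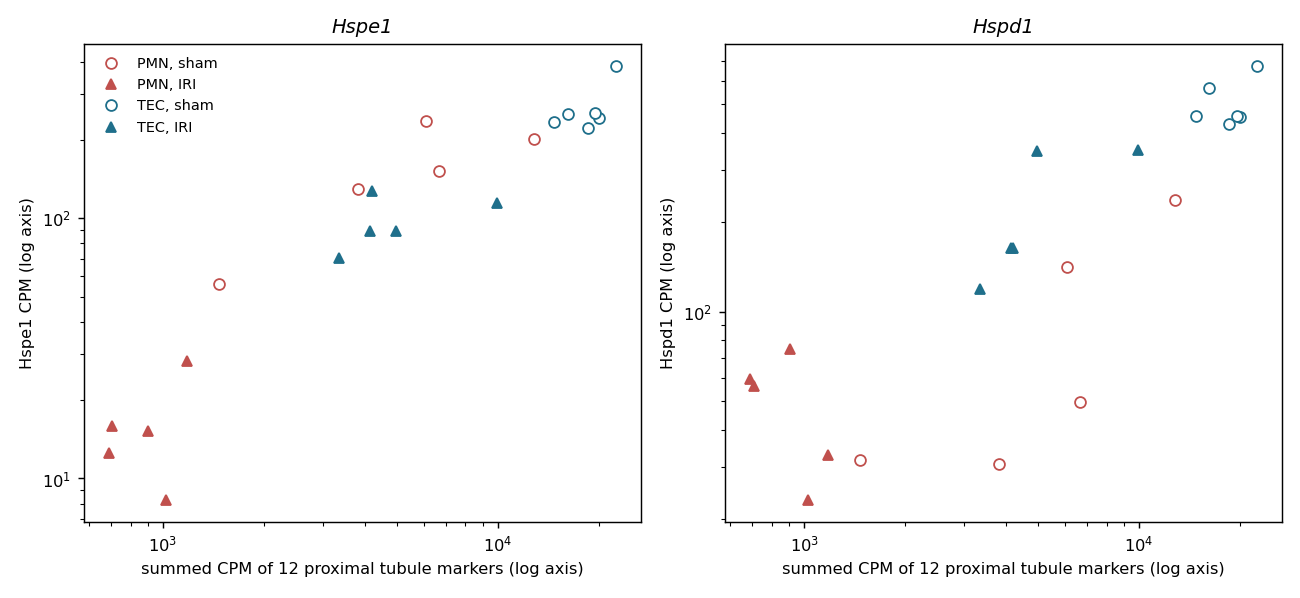
Level of Hspe1 (left) and Hspd1 (right) in CPM against the summed CPM of 12 proximal tubule markers, 1 point per library, on log axes, with PMNs in red, TECs in blue, open circles for sham surgery and triangles for IRI. The PMN libraries after IRI form a cluster at 691 to 1179 CPM of tubule markers and 8.24 to 28.3 CPM of Hspe1, below all other libraries on both axes.

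The other 8 genes did not pass the threshold in PMNs. Hsp90aa1 had 349.8 and 492 CPM in the sham control group and 400.2, 625 and 293 CPM with sham and RIPC, against 266 and 291 CPM in the IRI control group and 193, 271 and 217 CPM with IRI and RIPC. All values after IRI were lower, by a narrow margin at 291 against 293 CPM, and the log2 fold change was -0.79 (SE 0.29, edgeR adjusted p = 0.392). Hspb1 had 34.0 to 79.7 CPM after sham surgery, and 0.213, 38.1, 6.85, 10.5 and 0 CPM in the 5 libraries after IRI, of which only replicate 2 of the control group reached the range after sham surgery. Its log2 fold change of -2.27 had an SE of 1.48 (edgeR adjusted p = 0.54). Hspa5 was the gene with a positive log2 fold change, 0.46 (SE 0.27, edgeR adjusted p = 0.497).

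For Hspa1a and Hspa1b together, an exact permutation test over libraries was used besides edgeR. The mean of log2(CPM + 1) in PMNs was 9.51 ± 0.48 (SD, n = 5) after IRI and 9.90 ± 1.18 (SD, n = 5) after sham surgery, a difference of -0.40 (exact two-sided permutation test, p = 0.476, adjusted p = 0.476 over 2 tests, smallest possible p 0.00794). Levels after sham surgery ran from 406 to 2426 CPM and enclosed those after IRI, 534 to 982 CPM. The edgeR log2 fold change of Hspa1a alone, -0.55 (SE 0.52), turned to 0.08 without replicate 1 of the sham control group, and that of Dnajb1, -0.51 (SE 0.56), turned to 0.68 without the same library.

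Over the other chaperone lists, 0 of 75 genes tested passed the threshold of edgeR in PMNs, 2 had an unadjusted p under 0.05 and were higher after IRI and 1 was lower, and the median log2 fold change was -0.29. Of the 15 immediate early genes, 2 passed the threshold, both higher after IRI, and 9 had an unadjusted p under 0.05 and were higher. Nr4a1 had 1039 ± 187 CPM (SD, n = 5) after IRI and 169 ± 60.4 CPM (SD, n = 5) after sham surgery (5.78-fold, edgeR adjusted p = 0.018), and Ier3 had 1453 ± 522 and 129.8 ± 128 CPM (11-fold, edgeR adjusted p = 0.0255).

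**Figure D4:**
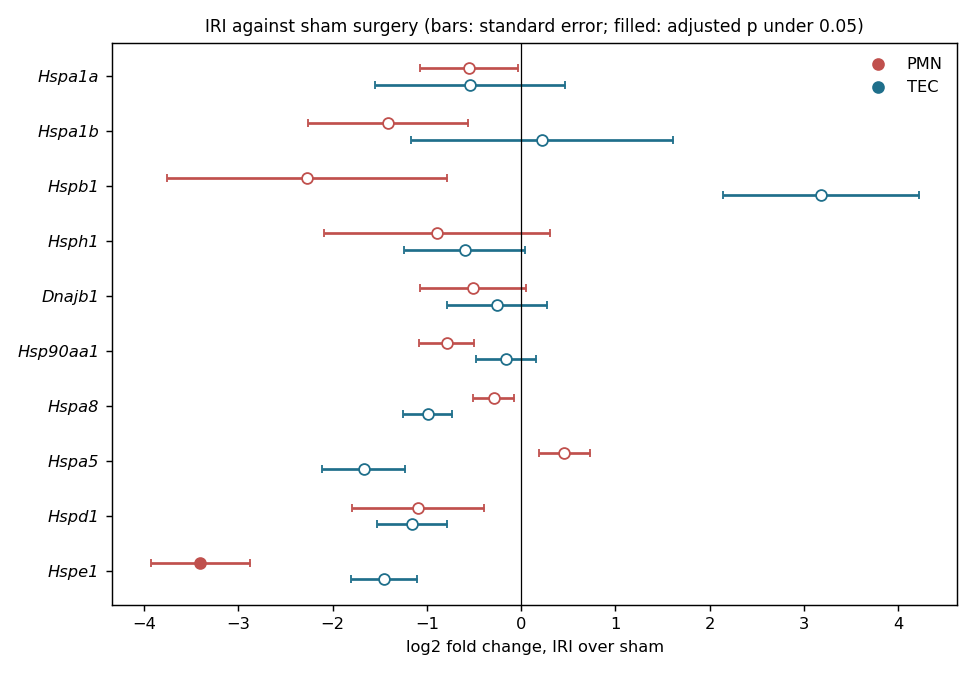
Log2 fold change of each gene after IRI over sham surgery with its standard error, fitted by edgeR within PMNs (red) and within TECs (blue), with filled points where the adjusted p was under 0.05. Hspe1 in PMNs, at -3.40, is the filled point, and in TECs Hspb1 lies at 3.18 while Hspa8, Hspa5, Hspd1 and Hspe1 lie between -1.67 and -0.99.

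In TECs, 0 of the 10 genes passed the threshold of edgeR between IRI and sham surgery, where 1.4% of all 25917 genes passed. Unadjusted p-values under 0.05 were found for 5 of the 10, against 15% of all genes, with Hspa8, Hspa5, Hspd1 and Hspe1 at lower and Hspb1 at higher levels after IRI. DESeq2's Wald test called 3 of them, Hspa8, Hspa5 and Hspe1, against 8.62% of all genes, and edgeR without its filter on low counts called Hspb1, Hspa8 and Hspa5. With replicate 3 of the IRI RIPC group, the library with the high tubule sum, left out, edgeR called 4 of the 10, Hspa8, Hspd1, Hspa5 and Hspe1, and without replicate 1 of the IRI control group it called Hspb1 and Hspa5. The median log2 fold change was -0.57 over the 10 genes and 0.15 over all genes, and the latter was 0.28 with the size factors of DESeq2.

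Hspe1 came closest to the threshold in the main test. It had 222, 385 and 243 CPM in TECs of the sham control group and 252, 253 and 235 CPM with sham and RIPC, and after IRI 88.9 and 127 CPM in the control group and 70.03, 88.9 and 114 CPM with RIPC. No library after IRI reached the lowest one after sham surgery. The log2 fold change was -1.45 (SE 0.35, edgeR adjusted p = 0.0595), a 2.73-fold difference. Hspd1, given library by library above, also did not overlap, with a log2 fold change of -1.16 (SE 0.37, edgeR adjusted p = 0.166).

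Hspa8 had 2537, 2915 and 2019 CPM in the sham control group and 2398, 2928 and 2607 CPM with sham and RIPC. After IRI its level was 1293 and 1442 CPM in the control group and 1319, 785 and 1740.0 CPM with RIPC, below each library after sham surgery. The log2 fold change was -0.99 (SE 0.26, edgeR adjusted p = 0.0866). Libraries did not overlap for 3 of the 10 genes, Hspa8, Hspd1 and Hspe1, all lower after IRI, against 3.01% of all genes in this direction.

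Hspa5 had 603, 874 and 530.5 CPM in the sham control group and 579, 748 and 510.3 CPM with sham and RIPC. After IRI, 4 libraries lay far lower, at 182 and 104 CPM in the control group and 196 and 104 CPM with RIPC, while replicate 3 of the RIPC group had 601 CPM. The log2 fold change was -1.67 (SE 0.44, edgeR adjusted p = 0.0833), and -2.16 without that replicate (edgeR adjusted p = 0.00521).

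Hspb1 ran the other way. It had 36.8, 0 and 5.53 CPM in the sham control group and 9.41, 22.5 and 7.65 CPM with sham and RIPC, against 161 and 201 CPM in the IRI control group and 133, 99.5 and 27.6 CPM with IRI and RIPC. Only replicate 1 of the sham control group, with 36.8 CPM, lay above the lowest library after IRI, which was again replicate 3 of the RIPC group. The log2 fold change of 3.18 (SE 1.04, 9.07-fold) had an edgeR adjusted p of 0.178. Of the 1030 stretches of 50 bases of Hspb1, 50.1% also occur in other genes, the processed pseudogene Hsp25-ps1 and Gm9817, annotated as protein-coding. Hsp25-ps1 held at most 6.22% as many reads as Hspb1, and Gm9817 a median of 0.556% and at most 80.3%. These shares do not exist for libraries with 0 reads of Hspb1. The level of Hspb1 is uncertain where reads were divided with Gm9817.

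Levels of Hspa1a and Hspa1b in TECs did not separate the kinds of surgery. Their sum was 36.6 to 208 CPM after sham surgery, and after IRI 203 and 228 CPM in the control group and 13.1, 0 and 117 CPM with RIPC. The difference of log2(CPM + 1) was -1.68, with 5.27 ± 3.37 (SD, n = 5) after IRI and 6.95 ± 0.90 (SD, n = 6) after sham surgery (exact two-sided permutation test, p = 0.32, adjusted p = 0.476 over 2 tests, smallest possible p 0.00216). Without replicate 2 of the IRI RIPC group, which had 0 reads, it was -0.37. The edgeR log2 fold change of Hspa1a was -0.54 (SE 1.01) over all groups and 0.87 within the control groups. Hsph1 had -0.60 (SE 0.64), or 0.05 with the offset for transcript length, Dnajb1 -0.26 (SE 0.53) and Hsp90aa1 -0.16 (SE 0.32), or 0.04 without replicate 2 of the sham control group.

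Cell markers moved in TECs after IRI as well. The proximal tubule sum was 14743 to 22506 CPM after sham surgery and 3352 to 9920 CPM after IRI, and 8 of the 12 markers passed the threshold of edgeR, all lower. Neutrophil markers summed to 1.82 to 79.2 CPM after sham surgery and 35.3 to 307 CPM after IRI, far below their 6730 CPM or more in PMNs, and Camp had at most 3 reads in every TEC library. Markers of distal tubule and collecting duct summed to 195 to 1198 CPM and to 120.6 to 647 CPM. Their list includes Prom1, the gene of the surface protein used to take TECs, which the study treats as a proximal tubule marker. Markers of endothelium summed to 4.19 to 79.8 CPM and to 6.42 to 278 CPM, and those of lymphocytes to 3.17 to 18.9 CPM and to 9.70 to 33.8 CPM. Macrophage markers were at 35.6 CPM or less. Erythrocyte markers ran from 4.40 to 726 CPM after sham surgery and from 72.8 to 832 CPM after IRI. The tubular injury genes, 8 in the list, summed to 1223 to 10442 CPM and to 5475 to 16590 CPM, with 1 past the threshold, higher after IRI. Lcn2 counts in this sum and in that of the neutrophil markers. The parts of the marked cell types in the levels of the chaperones were not tested.

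Among the other chaperone lists in TECs, 0 of 77 genes tested passed the threshold of edgeR, 21 had an unadjusted p under 0.05 and were lower after IRI and 3 were higher, and 54 log2 fold changes were negative, with a median of -0.72. The list of ER chaperones and the ER stress response had 10 of 16 genes with an unadjusted p under 0.05 and lower and 1 higher, with a median of -1.19, where 8.6% of all genes had such a p and were lower. Of the 6 other mitochondrial chaperones and proteases, 2 were lower by this measure, of the 3 other HSP90 genes 2, of the 12 cytosolic cochaperones 2 and of the 8 CCT subunits 0. The small heat shock proteins other than Hspb1, with 5 tested, had 1 higher and 1 lower by this measure and a median of 0.02, and the CCT subunits had 4 positive and 4 negative log2 fold changes and a median of -0.06. Of the 13 other J proteins 3 were lower and 1 was higher, of the 9 other HSP70 and HSP110 genes 1 was lower, and of the 5 heat shock factors and regulators 0 had such a p. Immediate early genes had 2 of 15 at an unadjusted p under 0.05, both higher after IRI, and a median of 0.14.

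Whether the effect of IRI differed between TECs and PMNs was tested as a difference of both log2 fold changes. Of the 10 genes, 0 passed the threshold of edgeR, as did 0% of all 31769 genes, while 3 of the 10 and 9.76% of all genes had an unadjusted p under 0.05. These 3 were Hspb1 (difference 5.45, SE 1.92, edgeR adjusted p = 0.327), Hspe1 (1.96, SE 0.65, edgeR adjusted p = 0.313) and Hspa5 (-2.09, SE 0.61, edgeR adjusted p = 0.264). DESeq2's Wald test called 3 of the 10, against 7.54% of all genes.

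RIPC was compared with the control procedure in each cell type after each kind of surgery, the comparison the study was designed for. In these 4 comparisons and in both interactions of RIPC and surgery, 0 of the 10 genes passed the threshold of edgeR or of DESeq2's Wald test, and 0 had an unadjusted p under 0.05 in edgeR. DESeq2 with apeglm (s value under 0.01), run for the 4 comparisons, called 0 of the 10 as well. Over all genes, edgeR passed 0.004% and 0% in PMNs after sham surgery and after IRI, and 0% and 0.00386% in TECs, with unadjusted p-values under 0.05 for 4.6%, 2.72%, 4.53% and 4.35%. The Wald test called 3.27% and 1.7% of all genes in PMNs and 1.66% and 2.7% in TECs, and apeglm 2.11%, 0.16%, 0.239% and 0.949% in the same order. For the interactions, edgeR passed 0% of all genes in each cell type, 5.74% in PMNs and 7.21% in TECs had an unadjusted p under 0.05, and the Wald test called 2.63% and 2.32%. The standard errors of the log2 fold changes in the 4 comparisons were between 0.31 and 2.05 with 2 or 3 libraries a group, and differences larger than their standard error also missed the threshold.

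In TECs after IRI, 3 genes had the smallest unadjusted p-values with RIPC. Hsph1 had 22.3 and 116 CPM in the control group and 47.5, 3.98 and 14.6 CPM with RIPC (log2 fold change -1.67, SE 0.93, edgeR adjusted p = 0.778). Hspa5 was at 1.07 (SE 0.64), which was 0.10 without replicate 3 of the RIPC group and its 601 CPM. Hspa1a was at -2.42 (SE 1.49), with 201 and 218 CPM in the control group above the 10.7, 0 and 107 CPM with RIPC. All 3 had the same edgeR adjusted p. Both groups were apart, with no overlap between libraries, for Hspa1a and Hspb1, 2 of the 10, both lower with RIPC, against 8.97% of all genes in this direction. In the other cells and surgeries, such separation was found for Hspb1 (higher) and Hspa1b (lower) in PMNs after sham surgery, where 12.7% of all genes were apart in either direction, for Hspe1 (higher) and Dnajb1 (lower) in PMNs after IRI (16.4%), and for 0 of the 10 in TECs after sham surgery (7.82%).

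The 10 genes did not rise and fall together across libraries. With Hspa1a and Hspa1b summed, Spearman's rho of the 36 pairs of genes had a median of 0.127 over the 10 PMN libraries, from -0.552 to 0.855, and of 0.341 over the 11 TEC libraries, from -0.836 to 0.936. These correlations describe libraries that differ by surgery, RIPC and marker content, and such shared differences are part of each. In TECs, Hspa8, Hspa5, Hspd1 and Hspe1 went together at 0.727 to 0.936 and Hspb1 went against them at -0.836 to -0.664. The highest pair was Hspd1 with Hspe1 at 0.936 in TECs, while in PMNs this pair had 0.394 and the highest was Hspb1 with Hsp90aa1 at 0.855. Hspe1 went with both of the latter in PMNs, at 0.806 with Hspb1 and 0.842 with Hsp90aa1. Heat shock genes of the inducible kind were not tied closely to the summed HSP70 pair, which had 0.576 with Dnajb1 and -0.370 with Hsph1 in PMNs and 0.473 and 0.445 in TECs.

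**Figure D5:**
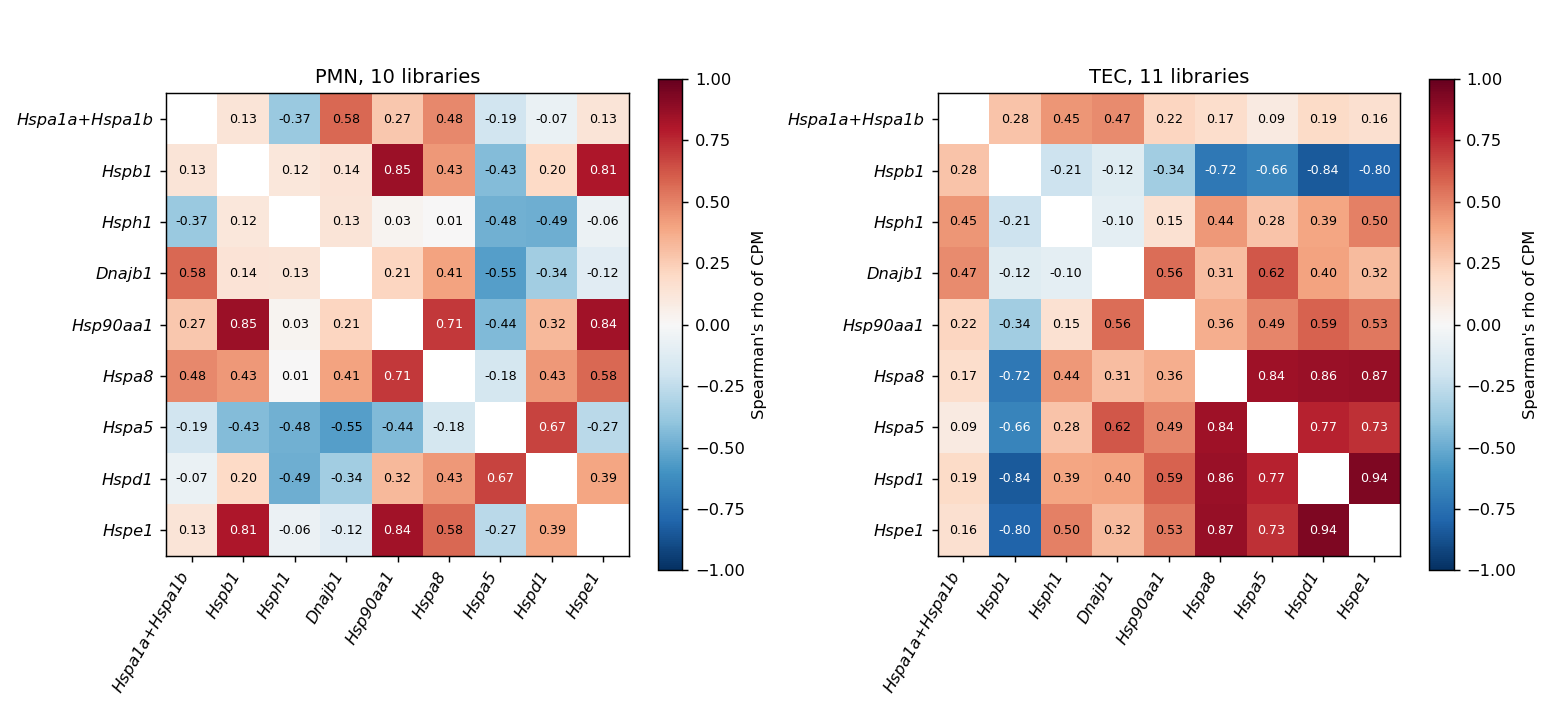
Spearman's rho of CPM between each pair of genes over the 10 PMN libraries (left) and the 11 TEC libraries (right), with Hspa1a and Hspa1b summed, red for positive and blue for negative values. In TECs a block of Hspa8, Hspa5, Hspd1 and Hspe1 is positive within itself and negative with Hspb1. These genes form no such block in PMNs, where Hspb1, Hsp90aa1 and Hspe1 are positive with each other.

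The genes whose levels across libraries were most like the summed Hspa1a and Hspa1b were listed as a description, among genes with a mean of at least 10 CPM. Over the 10 PMN libraries and 8755 genes they were Fgd2 (Spearman's rho 0.948), Impad1 (0.927), Clec4a2 (0.915), Ddx42 (0.915) and Slc25a45 (0.888). TECs, with 11 libraries and 9006 genes, had Ambra1 (0.955), Gt(ROSA)26Sor (0.918), and Klf4, Grb10 and Mosmo (0.855 each). The most alike of the other heat shock genes was Dnajb1 in both, with rank 266 in PMNs and rank 618 in TECs.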

How the data were processed

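Per the labels and the study's methods, poly(A) RNA of PMNs and TECs was reverse transcribed with a template switch, amplified as full-length cDNA and sequenced as single-end reads of 50 bases. The authors trimmed reads (Trim Galore 0.6.4) and quantified them with Salmon 1.0.0 against a Gencode mouse transcriptome, and the submitters' notes name mm10. The authors deposited estimated counts and TPM per transcript, without normalization of the counts between libraries, in 2 files per library. The effective lengths in the deposited files served for the length offset only. Counts of both files were added over the transcripts of a gene (Gencode M21 of GRCm38, 139864 of 140748 transcripts matched) and rounded. Of the TPM, the mean of both files was summed per gene.

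Tests left out the genes of chromosomes X and Y and of mitochondria. In R 4.3.3, edgeR 4.0.16 with limma 3.58.1 gave the main quasi-likelihood test, with TMM factors and filterByExpr, fitted to the 10 PMN, the 11 TEC or all 21 libraries with a mean per group, and adjusted p-values (Benjamini-Hochberg) cover all genes tested. Standard errors are the log2 fold change over the square root of F. Printed CPM use factors over 21 libraries, which differ from those of a cell type by at most 6.05%. DESeq2 1.42.0 with apeglm 1.24.0 (s value under 0.01), the kind of test the study used, was an alternative beside DESeq2's Wald test. The main test for count data here is edgeR. The apeglm fit used the filtered and rounded sums of both files, so it does not repeat the study's analysis. Its numbers of called genes differ from the published ones. The alternatives were no filter on low counts, DESeq2 size factors, each file alone, a length offset, sex-chromosome and mitochondrial genes kept, Hspa1a and Hspa1b summed, a replicate block, single pairs of groups, and each library left out. The summed pair was compared with an exact permutation test of log2(CPM + 1) (scipy 1.17.1).

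Other genes are named by rule, up to 5 per direction with the smallest adjusted p under 0.05 among the chaperone and immediate early lists, and the 5 genes most alike to the summed pair. The members and lists were chosen with earlier results of these data known. Marker genes of cell types came from lists of neutrophil, macrophage, lymphocyte, erythrocyte, endothelium, proximal tubule, distal tubule with collecting duct, and tubular injury genes. Lcn2 is in both the neutrophil and the tubular injury list. Prom1, the gene of prominin-1, is in the list of distal tubule with collecting duct, while the study uses it as a proximal tubule marker. The fits were tested on simulated counts with less spread between libraries than in these data. That test does not show how the fits behave at the spread seen here. Limits from counts cover counting error only, because amplified reads had no molecular identifiers. The estimated counts depend on how Salmon divides reads between near-identical transcripts.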

Additional observations from a re-analysis of the deposited data

Results flagged for a closer look

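Levels of the 10 genes and of the summed Hspa1a and Hspa1b were screened for a library that stands apart within the 4 sets of a cell type and a kind of surgery, 44 sets of values in all, and chance marks about 1 in 20 such sets. Of these, 2 values stood out. Hspa1b had 0.801 CPM in replicate 2 of the PMN IRI RIPC group, against 11.2 to 16.7 CPM in the other PMN libraries after IRI, while Hspa1a had 549 CPM in that library and took 99.9% of the reads of both genes. How the division of reads between these near-identical genes bears on this value was not tested. Hspe1 had 385 CPM in replicate 2 of the TEC sham control group, against 222 to 253 CPM in the other TEC libraries after sham surgery. That library also had the highest proximal tubule sum of all, 22506 CPM, and the fewest genes with more than 3 reads, 12452.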

How the results depend on the processing

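Most values kept their direction and their side of the threshold: of 1255 values under alternatives, 1145 did so or moved by less than the spread between libraries. Of the 10 genes, edgeR called 1 between IRI and sham surgery in PMNs, against 0 within the control groups alone, within the RIPC groups alone and with a replicate block, and between 0 and 1 with 1 library left out. In TECs it called 0, against 3 without the filter on low counts, 3 by DESeq2's Wald test, and between 0 and 4 with 1 library left out. Between PMNs and TECs it called 4, against 0 within each of the 4 pairs of groups alone, 7 by the Wald test, and between 3 and 6 with 1 library left out. For the difference of the effects of IRI the 0 became 1 without the filter and 3 by the Wald test. The cause of these changes was not tested. The comparisons within pairs of groups, or within control or RIPC groups alone, came from the same fit as the main test. Each of them compared fewer libraries.

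Signs turned in TECs between IRI and sham surgery for Hspa1a (0.87) and the summed pair (0.87) within the control groups, for Hspa1b within the RIPC groups (-0.50) and for Hsph1 with the length offset (0.05). Between PMNs and TECs they turned for Hspb1 within the sham control (1.36) and sham RIPC groups (2.39), for Hspa5 within the same groups (-0.33 and -0.47) and for Hspa8 within the IRI RIPC groups (0.02). With 1 library left out, the log2 fold change after IRI crossed 0 in PMNs for Hspa1a (-0.81 to 0.08), Dnajb1 (-0.88 to 0.68) and Hspd1 (-1.49 to 0.02), and in TECs for Hspa1b (-0.64 to 0.70) and Hsp90aa1 (-0.29 to 0.04). With RIPC in TECs after IRI it did so for Hspa1b (-2.31 to 0.93), Dnajb1 (-0.60 to 0.64), Hsp90aa1 (-0.36 to 0.01), Hspa8 (-0.34 to 0.15), Hspd1 (-0.78 to 0.36) and Hspe1 (-0.49 to 0.09). Over all genes, DESeq2's Wald test called 1942 genes between IRI and sham surgery in PMNs, 2234 in TECs and 5389 between cell types, and edgeR without the filter called 971, 1289 and 3216, where the main test called 104, 363 and 2182.

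Replicate numbers recur across groups, but the labels do not tie them to shared animals. Between groups of a cell type, deviations of same-numbered libraries correlated at -0.023 to 0.030 in PMNs and -0.106 to 0.139 in TECs. Libraries with different numbers had -0.030 to 0.030 and -0.121 to 0.076. A mouse belongs to a single group, so these values cannot tell whether a PMN and a TEC library share an animal. That was not tested, and the numbers were not taken as pairs. With the replicate block, Hspe1 in PMNs was at -3.30 on the log2 scale (edgeR adjusted p = 0.0957). Depth limits what 0 reads can show to 3 reads a library.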
